A study of Rattus norvegicus with 35 samples.

Results

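Growth and upkeep of blood vessels were examined through 10 genes: the growth factor genes Vegfa, Angpt1 and Angpt2, the receptor genes Kdr, Flt1, Tek, Tie1 and Eng, and the vessel wall genes Pecam1 and Vwf. A probe was taken when the scanner file gave one of these symbols as its gene name or in brackets in its description, which found 16 probes of 9 genes among the 41012 probes of the array. The probe of Pecam1 is named Pecam in the files and was found through its accession instead, which brought the total to 17 probes of 10 genes.

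VEGF-A is secreted by many cell types and binds a pair of receptor tyrosine kinases on endothelial cells, Kdr, which carries most of the signal for growth and survival, and Flt1, which binds the ligand tightly and limits what Kdr receives. The angiopoietins act through the receptor Tek, with Angpt1, from cells around the vessel, as the activating ligand and Angpt2, from endothelial cells, as a ligand that can oppose it, while Tie1 modulates Tek. The olfactory epithelium lies on a lamina propria rich in vessels, so that dissected olfactory tissue holds endothelial cells beside sensory neurons.

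The study profiled the olfactory epithelium of Brown Norway rats from birth to old age on 35 one-color Agilent arrays that cover the rat genome. The newborn rats were 19 pups of unknown sex, aged between 3 and 5 days, with 4 pups in litter L1 and 5 in each of litters L2, L3 and L4, and gave 1 array each, from 1 side of the nose. The 4 adult rats, aged 9 weeks, and the 4 old rats, aged 22 months, were male and gave 2 arrays each, 1 per side (A and B). Scanning took 5 days, with only adult rats on days 1 and 2, L1 and old rats together on day 3 and the other litters on days 4 and 5, so that age and scan day can be told apart only between L1 and old rats.

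The median intensity of an array was 42.1 to 87.8 in newborn (middle value 56.6), 82.4 to 164 in adult (113) and 37.2 to 55.3 in old rats (42.3). Transcripts above background numbered 24484 to 28361 on an array of a newborn (middle value 26830), 25273 to 28020 of an adult (27362) and 25275 to 27426 of an old rat (26567). A level is the log2 of a probe's background-subtracted intensity over the median of its array, so that 0 is the median probe, and the arrays of a rat were averaged. Levels depend on each probe's own binding, so changes were compared between rats at the same probe, and sums over a list or its brightest gene are given only as a description. Of the 17 probes, 8 were above background on all 35 arrays and 5 on no array. The tests covered the 23668 transcripts expressed in all 6 groups, which included 8 probes of 6 of the genes (Vegfa, Kdr, Angpt1, Angpt2, Eng and Vwf). The remaining 9 probes did not pass that filter, and Flt1, Tek, Tie1 and Pecam1 had no probe that did. A transcript was called at an adjusted p under 0.01 in limma. The number of arrays limits the precision.

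Newborn tissue had higher RNA levels of the VEGF receptor Kdr and of the co-receptor Eng than adult or old tissue, with every pup above every older rat. Angpt1 and, at 1 of its 2 probes, Vegfa were higher by less, and Vwf, a marker of the vessel wall, passed the test against neither older group. In newborn against adult rats, 4 of the 6 genes tested had a probe called higher in newborn rats (Angpt1, Eng, Kdr and Vegfa), beside 40.1% of all transcripts tested, and 0 had a probe called lower by limma, beside 26.1%. In newborn against old rats, 5 of the 6 genes had a probe called higher (the same 4 genes and Angpt2), beside 28.3% of all transcripts, and 0 had a probe called lower by limma, beside 31.5%. At an unadjusted p under 0.05, limma placed 0 of 8 probes lower in newborn than in adult rats and 1 lower than in old rats, and the methods' t-test 0 and 0. Counted by probe, 4 of 8 were called higher against adult and 5 of 8 against old rats. The median change over the 8 probes was 0.37 against adult and 0.52 against old rats, beside 0.16 and −0.03 over all transcripts tested. In bulk tissue, fewer cells of a type and less RNA per cell cannot be told apart.

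Among the ligands, Vegfa was represented by an upstream probe (A_44_P300751, chr9:10519066-10519125 in build rn3) and a downstream probe (A_43_P15572, chr9:10525902-10526287). The level at the downstream Vegfa probe ran from 0.76 to 2.25 in newborn rats (median 1.18, n = 19). In the adult rats the downstream Vegfa level was 0.53, 0.94, 0.17 and 0.78, and in the old rats it was 0.75, 0.57, 0.71 and 0.42. All 19 pups lay above every old rat and 16 above every adult rat. The downstream probe was 1.58-fold higher in newborn than in adult rats (log2 0.66 ± 0.12, SE; adjusted p = 4.18e-05) and 1.58-fold higher than in old rats (log2 0.66 ± 0.12, SE; adjusted p = 5.45e-05). Against adult rats the call was lost with the methods' t-test (0.64; adjusted p = 0.0349), and with normexp background correction and quantile normalization the 2 changes were smaller (0.41 and 0.38). Here and below, the normexp setting adds an offset of 50 to every intensity. The offset by itself makes log2 changes smaller, most of all at dim probes.

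At the upstream Vegfa probe the level ran from 0.30 to 1.83 in newborn rats (median 0.66, n = 19). The adult rats had 0.25, 0.48, 0.38 and 0.65 at this probe and the old rats 1.1, 1.05, 1.37 and 0.62. Here 10 pups lay above every adult rat, whereas 8 lay below every old rat and 2 above, so that newborn rats overlapped both older groups. The upstream probe did not pass the test against adult rats (log2 0.32 ± 0.13, SE; adjusted p = 0.029, and called only with every array as a sample) or against old rats (log2 −0.27 ± 0.13, SE; adjusted p = 0.069). The change at the downstream probe exceeded that at the upstream probe by 0.34 against adult rats and by 0.93 against old rats, a difference that was looked at after the values were seen and is given as a description.

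Both Vegfa probes are shown because their levels moved apart between newborn and old rats. The upstream probe opens with the letters of a start codon, in capitals.
Vegfa upstream: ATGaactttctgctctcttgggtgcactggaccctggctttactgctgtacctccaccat
Vegfa downstream: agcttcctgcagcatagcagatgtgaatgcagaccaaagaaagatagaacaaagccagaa

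Angpt1, the ligand that activates Tek, had a level from 0.82 to 2.25 in newborn rats (median 1.09, n = 19) at its probe (A_44_P1058692, which the files place at chr7:78216234-78216239). Adult rats had 0.86, 0.84, 0.71 and 0.61 and old rats 0.77, 0.48, 0.67 and 0.73. All 19 pups were above every old rat and 17 above every adult rat, and the highest pup, rat 11 of L1, stood apart from the next at 1.57. Angpt1 was 1.42-fold higher in newborn than in old rats (log2 0.51 ± 0.13, SE; adjusted p = 0.00114) and 1.34-fold higher than in adult rats (log2 0.42 ± 0.13, SE; adjusted p = 0.00512). The call against adult rats was lost with the 75th percentile as the scaling (0.29), with normexp background correction (0.25), with slide (0.41) or scan day (0.40) as a random block, and without adult rat 15 (0.41) or 16 (0.37). Against old rats it was lost with scan day as a random block (0.49), and the change was smaller with normexp background correction (0.29).

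Angpt2, the ligand that can oppose Angpt1, had 3 probes, of which the one farthest upstream (A_44_P419123) was above background on no array. At the probe farthest downstream (A_44_P792166, chr16:75942238-75942297) the level ran from 2.86 to 4.03 in newborn rats (median 3.42, n = 19). The adult rats had 2.80, 3.29, 2.95 and 3.6 at this probe and the old rats 2.90, 2.65, 3.01 and 2.92. Newborn and adult rats overlapped in part, with 4 of 19 pups above every adult rat and adult rat 13 below every pup, and 16 of 19 pups lay above every old rat. This Angpt2 probe was 1.44-fold higher in newborn than in old rats (log2 0.52 ± 0.16, SE; adjusted p = 0.00527) and did not pass the test against adult rats (0.23 ± 0.16, SE; adjusted p = 0.192). The call against old rats was lost in 7 of 13 other settings (0.41 to 0.52) and without old rat 17 (0.53), 18 (0.45) or 20 (0.54).

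The middle Angpt2 probe (A_43_P15980, chr16:75939504-75939563) had levels between 0.76 and 2.01 in newborn rats (median 1.27, n = 19), of 0.89, 1.65, 1.02 and 1.74 in adult rats and of 1.11, 0.77, 1.0 and 1.04 in old rats. Its changes of −0.01 against adult rats (adjusted p = 0.951, 4 of 19 pups above every adult rat and 2 below) and 0.33 against old rats (adjusted p = 0.101, 14 of 19 above every old rat and 1 below) did not pass the test. With the mean of each group taken away, the middle and downstream Angpt2 probes had a Pearson's r of 0.965 over the 27 rats, and the Vegfa probes 0.717.

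**Figure D1:**
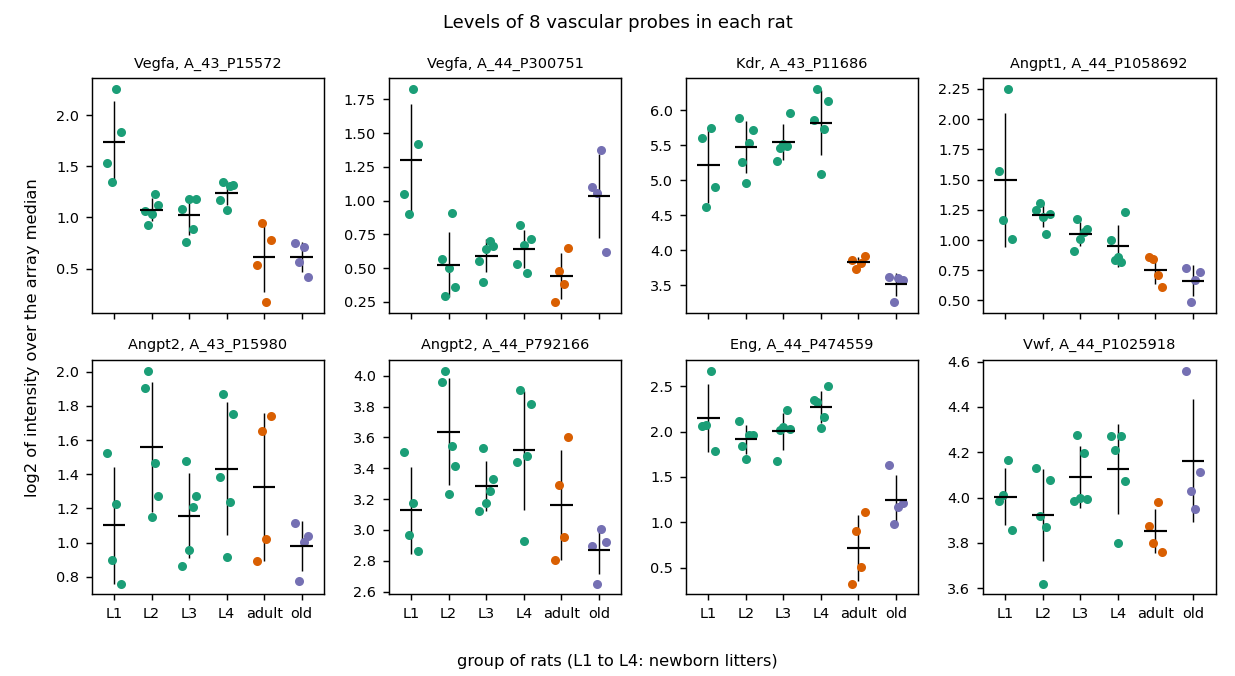
Level of each of the 8 tested probes (y axis, log2 of intensity over the array median) in each rat, by litter (L1 to L4, green), adult (orange) and old (purple) rats, with the mean as a bar and the SD as a vertical line. For Kdr the pups lie between 4.62 and 6.30, above the adult and old rats.

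Kdr, the main signalling receptor for VEGF-A, had the widest gap between ages among the 8 probes tested. Its level (probe A_43_P11686, without coordinates in the files) ran from 4.62 to 6.30 in newborn rats (median 5.53, n = 19). The adult rats had 3.85, 3.73, 3.82 and 3.92 and the old rats 3.62, 3.26, 3.6 and 3.57. The lowest pup, rat 10 of L1, was above the highest adult rat, so the ages did not overlap, and all 4 adult rats were above all 4 old rats. Kdr was 3.21-fold higher in newborn than in adult rats (log2 1.68 ± 0.19, SE; adjusted p = 1.75e-08; 19 of 19 pups) and 4.0-fold higher than in old rats (log2 2.0 ± 0.19, SE; adjusted p = 1.37e-09; 19 of 19 pups). The Kdr means by litter were 5.22 ± 0.54 in L1 (SD, n = 4), 5.47 ± 0.37 in L2, 5.54 ± 0.26 in L3 and 5.82 ± 0.47 in L4 (SD, n = 5 each).

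Eng encodes endoglin, a co-receptor for ligands of the BMP and TGF-beta family on endothelial cells. Its level (probe A_44_P474559, without coordinates in the files) ran from 1.68 to 2.67 in newborn rats (median 2.05, n = 19). Levels in adult rats were 0.32, 0.91, 0.51 and 1.12, and in old rats 1.63, 0.98, 1.16 and 1.21. Every pup was above every older rat, although the lowest pup (1.68) and old rat 17 (1.63) nearly met, and old rats lay above adult rats except for an overlap of old rat 18 with adult rat 16. Eng was 2.59-fold higher in newborn than in adult rats (log2 1.37 ± 0.14, SE; adjusted p = 3.46e-09) and 1.79-fold higher than in old rats (log2 0.84 ± 0.14, SE; adjusted p = 1.02e-05). With normexp background correction and quantile normalization the 2 changes were smaller (0.65 and 0.51).

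Flt1, the receptor that holds VEGF-A back from Kdr, was near background. Its downstream probe (A_43_P12015) was above background on no array, and its upstream probe (A_44_P520123, chr12:7954639-7971736) on 14 of 19 newborn arrays and on 0 of 8 adult and 0 of 8 old arrays. At the upstream probe the level ran from −2.92 to −0.37 in newborn rats (median −1.55, n = 19). In adult rats it was −3.00, −3.67, −3.75 and −3.00 and in old rats −2.53, −2.28, −3.36 and −4.14. All 19 pups were above every adult rat and 17 above every old rat. Set against the level that a probe needed to count as above background on the older arrays, Flt1 was higher in newborn than in adult rats by a factor of 1.88 or more, and than in old rats by a factor of 1.58 or more. In a limma fit without the filter, adjusted over 41012 probes, the change was 1.89 against adult rats (adjusted p = 5.35e-05) and 1.61 against old rats (adjusted p = 0.000373), values that rest on intensities below background in the older rats.

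Tek and Tie1 form the angiopoietin receptor pair. Both Tek probes were above background on no array of any age, so no change is given for Tek. The downstream Tie1 probe (A_44_P520235, chr5:138955489-138955548) was above background on 19 of 19 newborn, 7 of 8 adult and 4 of 8 old arrays. Its level ran from −0.73 to 0.78 in newborn rats (median −0.02, n = 19). Adult rats were at −1.41, −1.32, −1.36 and −1.0 and the old rats −1.11, −2.44, −2.64 and −2.15. No pup overlapped an older rat, and old rat 17 stood with the adult rats. In the fit without the filter this Tie1 probe was 2.41-fold higher in newborn than in adult rats (log2 1.27 ± 0.25, SE; adjusted p = 0.000163) and 4.23-fold higher than in old rats (log2 2.08 ± 0.25, SE; adjusted p = 3.01e-07), the latter a value that rests in part on old arrays with intensities at or below background.

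The upstream Tie1 probe (A_44_P395771, chr5:138956186-138958614) was above background on 16 of 19 newborn, 7 of 8 adult and 0 of 8 old arrays. Its level ran from −1.79 to 0.31 in newborn rats (median −0.89, n = 19), and was −2.49, −2.12, −2.08 and −1.63 in adult rats and −2.08, −2.33, −2.18 and −3.13 in old rats. All 19 pups lay above every old rat and 18 above every adult rat. Against adult rats the change was 1.28 ± 0.29 (SE; adjusted p = 0.000683, fit without the filter), and newborn rats were at least 2.53-fold above old rats by the same approximate bound. With normexp background correction, 1 of 4 other scalings chosen for these dim probes after seeing the data, the changes were smaller. They were 0.33 against adult and 0.31 against old rats for Flt1, 0.47 and 0.61 for the downstream Tie1 probe and 0.32 and 0.35 for the upstream one. The offset in that setting makes changes at dim probes smaller by itself.

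Pecam1, an adhesion molecule of the junctions between endothelial cells, was above background on 7 of 19 newborn, 0 of 8 adult and 1 of 8 old arrays (probe A_44_P305223, chr10:96072087-96072146). Its level ran from −3.95 to 0.62 in newborn rats (median −2.57, n = 19). Levels of −3.69, −3.51, −3.37 and −5.29 were found in adult rats and of −3.15, −5.53, −3.55 and −4.79 in old rats. Rat 9 of L1 stood alone at 0.62, and newborn rats overlapped both older groups, with 17 pups above every adult rat and 15 above every old rat. Because most of these intensities were below background, no change in Pecam1 is taken as a result, and the bound against adult rats was 1.0-fold, which sets no difference.

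Vwf encodes von Willebrand factor, which endothelial cells store and release for the capture of platelets. The downstream Vwf probe (A_44_P1025918, chr4:162098933-162099422) had levels from 3.62 to 4.27 in newborn rats (median 4.01, n = 19). The adult rats had 3.88, 3.80, 3.98 and 3.76 and the old rats 4.56, 4.03, 3.95 and 4.12. Old rat 17 was the highest of all 27 rats, and the 3 ages overlapped. The Vwf change was 0.18 ± 0.10 against adult rats (SE; adjusted p = 0.104; 14 of 19 pups above every adult rat) and −0.13 ± 0.10 against old rats (SE; adjusted p = 0.259; 5 of 19 below every old rat), and neither passed the test. The upstream Vwf probe (A_43_P15902, chr4:162054469-162054528) was above background on no array.

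Sequences are given for the probes of Vwf, because 1 gave signal on every array and the other on none, and for the Flt1 probe with signal in pups only. No letters are marked.
Vwf with signal: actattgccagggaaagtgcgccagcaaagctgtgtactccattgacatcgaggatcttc
Vwf without signal: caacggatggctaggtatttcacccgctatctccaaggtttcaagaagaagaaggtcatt
Flt1 with signal in pups: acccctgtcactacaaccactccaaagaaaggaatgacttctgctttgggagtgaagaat

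**Figure D2:**
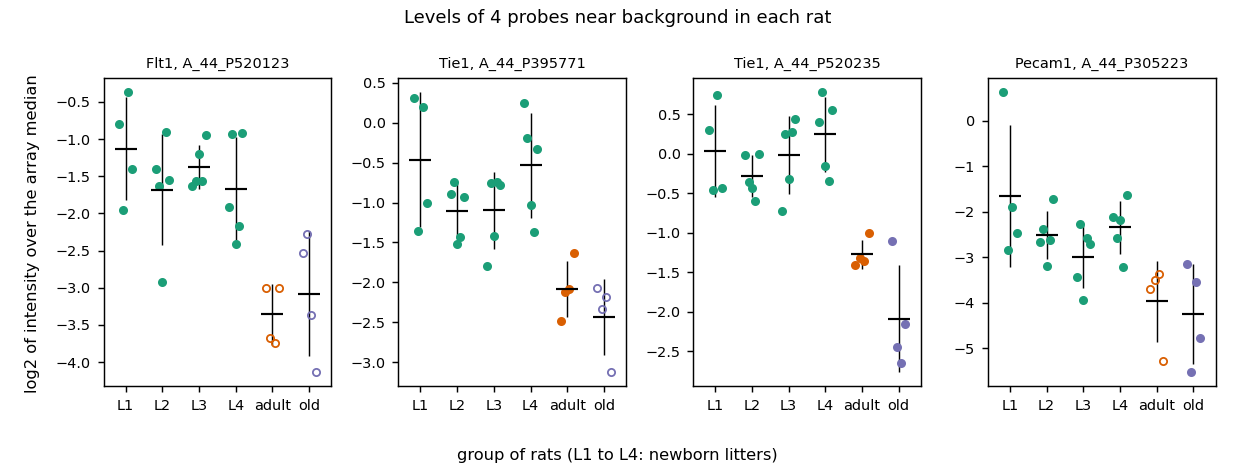
Level of the Flt1, Tie1 and Pecam1 probes that the filter left out (y axis, log2 of intensity over the array median) in each rat, by litter, adult and old rats, with the mean as a bar and the SD as a vertical line; filled points mark groups with at least 1 array above background. For Flt1 no adult or old array was above background.

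The scaling of the arrays moved the newborn against adult comparison as a whole. The median change of all transcripts tested was 0.16 with the array median as the scale and shifted by −0.13 with the 75th percentile, by −0.17 with quantile normalization and by −0.17 with normexp background correction. Of the transcripts called, 60.6% were higher in newborn rats, and 51.2%, 48.6% and 47.9% with those scalings in the same order. Relative to the median of all transcripts, the newborn against adult change was 1.52 for Kdr, 1.21 for Eng, 0.50 and 0.16 for Vegfa at the downstream and upstream probes, 0.26 for Angpt1, 0.06 and −0.18 for Angpt2 at the downstream and middle probes, and 0.02 for Vwf.

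In adult against old rats the 1 call was of Vegfa at the upstream probe, lower in adult rats. By gene, 1 of 6 was called lower in adult rats, beside 32.0% of all transcripts, and 0 of 6 higher by limma, beside 15.5%. At an unadjusted p under 0.05, limma placed 3 of 8 probes lower and 0 higher in adult rats, and the methods' t-test 1 and 1. The upstream Vegfa level was 0.44 ± 0.17 in adult rats (SD, n = 4) and 1.04 ± 0.31 in old rats (SD, n = 4), and 3 of 4 adult rats lay below every old rat. That is 1.51-fold lower in adult rats (log2 −0.59 ± 0.17, SE; adjusted p = 0.00399), with a smaller change under normexp background correction (−0.36). The call was lost in 5 of 13 other settings (−0.59 to −0.52) and without adult rat 13 (−0.53) or 15 (−0.58) or old rat 17 (−0.57), 18 (−0.59) or 19 (−0.48).

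The downstream Vegfa probe had 0.61 ± 0.34 in adult and 0.61 ± 0.15 in old rats (SD, n = 4 each), and its change of −0.00 (adjusted p = 0.989) turned positive with the 75th percentile (0.08). The changes at the Vegfa probes differed by 0.59 in this comparison. Eng was lower in adult than in old rats by a change of −0.53 (adjusted p = 0.013; 3 of 4 adult rats below every old rat), which passed the threshold with quantile normalization (−0.56), with every array as a sample (−0.53) and without adult rat 16 (−0.67), old rat 18 (−0.62) or rat 11 of L1 (−0.53), but shrank with normexp background correction (−0.14). Vwf had a change of −0.31 (adjusted p = 0.0419; 3 of 4 below; called with every array as a sample, but −0.14 with quantile normalization), Kdr of 0.32 (adjusted p = 0.26; 4 of 4 above every old rat), Angpt1 of 0.09 (adjusted p = 0.658) and the Angpt2 probes of 0.34 and 0.29 (adjusted p = 0.2 and 0.219). The median change of all transcripts was −0.19 and shifted by 0.15 with quantile normalization and by 0.17 with normexp background correction, and the share of calls that were higher in adult rats moved from 32.6% to 48.0% and 49.0%.

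Within the scan day that held both ages, L1 pups had higher levels than old rats of Angpt1, Kdr, Eng and, at the downstream probe, Vegfa. The arrays of L1 and of old rats were on different slides, so that age and slide cannot be told apart here. In L1 against old rats, 4 of the 6 genes were called higher in L1, beside 17.8% of all transcripts, and 0 lower by limma, beside 30.6%, with 0 of 8 probes lower at an unadjusted p under 0.05. Kdr was 3.26-fold higher (log2 1.70 ± 0.24, SE; adjusted p = 1.74e-06) and Eng 1.87-fold higher (log2 0.90 ± 0.18, SE; adjusted p = 0.000131), each with 4 of 4 pups above every old rat. The downstream Vegfa probe was 2.19-fold higher (log2 1.13 ± 0.16, SE; adjusted p = 1.77e-06) and Angpt1 1.78-fold higher (log2 0.83 ± 0.17, SE; adjusted p = 0.000132), again with 4 of 4 pups above every old rat, and the Angpt1 call was lost when only these groups were fitted (0.83). The upstream Vegfa probe (0.26; adjusted p = 0.179), both Angpt2 probes (0.12 and 0.26; adjusted p = 0.667 and 0.278) and Vwf (−0.16; adjusted p = 0.29) did not pass the test. With normexp background correction the changes were smaller for Vegfa at the downstream probe (0.73), Angpt1 (0.53) and Eng (0.57). Flt1 was at least 1.99-fold and the upstream Tie1 probe at least 3.2-fold higher in L1 than in old rats. These approximate bounds rest on the array median as the scale. With normexp background correction and its offset, the newborn against old changes at these probes were 0.31 and 0.35. The median over the 8 probes was 0.55, beside −0.14 over all transcripts tested.

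Among the 4 litters, Vegfa was the 1 gene of 6 that differed, with both probes called, beside 37.7% of all transcripts. The means of the downstream probe were 1.74 ± 0.40 in L1 (SD, n = 4), 1.07 ± 0.11 in L2, 1.02 ± 0.19 in L3 and 1.24 ± 0.12 in L4 (SD, n = 5 each), a range of 0.72 (adjusted p = 0.0014). Those of the upstream probe were 1.30 ± 0.41 in L1 (SD, n = 4), 0.53 ± 0.24 in L2, 0.59 ± 0.12 in L3 and 0.64 ± 0.14 in L4 (SD, n = 5 each), a range of 0.77 (adjusted p = 0.000994). L1 was the highest litter at both probes, and all 4 of its pups were above all pups of the other litters at the downstream probe. L1 was also the only litter on its slide and scan day, so that litter, slide and scan day cannot be told apart for it. Rat 11 of L1 had the highest level of all 27 rats at both Vegfa probes (2.25 and 1.83), at Angpt1 (2.25) and at Eng (2.67). Without it, both Vegfa calls were lost (ranges 0.55 and 0.60), as they were with slide as a random block (0.71 and 0.73), and with normexp background correction the range at the upstream probe was 0.47. Angpt1 had a range of 0.55 among the litter means (adjusted p = 0.0244), from 1.5 ± 0.55 in L1 (SD, n = 4) to 0.95 ± 0.17 in L4 (SD, n = 5), and passed the threshold with the 75th percentile (0.71) and without rat 12 of L1 (0.71), whereas without rat 11 of L1 the range was 0.30.

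Sides of a nose were compared without a test. Over the 8 adult and old rats, the median absolute difference between sides A and B was 0.24 for the 8 probes and 0.12 for all transcripts tested. The largest was 1.33, at the downstream Angpt2 probe in an adult rat. By age group, the medians of Vwf (0.10 in adult and 0.11 in old rats), of Angpt1 in old rats (0.08) and of the downstream Vegfa probe in adult rats (0.11) were below that of all transcripts.

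Likeness between genes was read over the 27 rats after the mean of each of the 6 groups was taken away, so that it describes differences between rats of a group. Kdr had a Pearson's r of 0.563 with Eng, 0.543 with Angpt1, 0.625 with Angpt2 at the downstream probe, 0.496 with Vwf and 0.427 with Vegfa at the downstream probe. Vwf had an r of −0.002 with Vegfa at the downstream probe. Among 23667 other transcripts, those with a gene symbol most like Kdr were Apcdd1 (r = 0.899), the endothelial junction gene Esam (0.896) and the endothelial nitric oxide synthase Nos3 (0.891). These values were 0.892, 0.882 and 0.86 after the 2 rats whose Kdr level lay farthest from the mean of their group were left out. Most like Eng were Aebp1 (0.903), Nkd2 (0.902) and Tm4sf1 (0.9), and most like Angpt2 at the downstream probe were Scarf1 (0.765), Clec14a (0.735) and Fcna (0.729). For Angpt1 they were the gap junction gene Gja1 (0.912), Bambi (0.903) and Itga6 (0.883), which fell to 0.748, 0.721 and 0.715 without rats 11 and 12 of L1. For Vegfa at the downstream probe they were Dmn (0.749), Igsf10 (0.723) and Sall3 (0.689), and for Vwf they were Pgc (0.734), Silv (0.712) and Sox10 (0.712). The Vegfa values fell to 0.631, 0.644 and 0.549 without rat 11 of L1 and adult rat 15. With 2 rats left out by the same rule, the values were 0.672, 0.664 and 0.66 for Angpt2 and 0.875, 0.85 and 0.847 for Eng. For Vwf they were 0.766, 0.745 and 0.76.

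Other ligands and partners of the same receptors were read as a list. Of 9 further genes of the VEGF and angiopoietin pathway, 5 were tested, and 4 were called higher and 0 lower by limma in newborn than in adult rats, as against old rats. For this and the following lists, the shares of all transcripts tested to read the counts against are 40.1% higher and 26.1% lower in newborn than in adult rats, 28.3% and 31.5% for newborn against old, and 15.5% and 32.0% between the older groups (adult as the first). Ptprb, the phosphatase that acts on Tek, had changes of 1.98 and 1.96 against adult and old rats (adjusted p = 1.05e-12 and 2.45e-12). Pgf, a ligand of Flt1, had 1.91 and 1.59 (adjusted p = 2.6e-11 and 1.09e-09), and Vegfc, the lymphatic growth factor, had 1.19 and 1.29 (adjusted p = 1.2e-08 and 4.6e-09). For all 3, 19 of 19 pups were above every older rat. In adult against old rats 1 was called, Vegfb, the brightest of the list, lower in adult rats (−1.12; adjusted p = 4.4e-10; 4 of 4 below) and not called in newborn against old rats (−0.14).

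Around endoglin, 8 of 10 genes of the BMP pathway were tested, and 3 were higher and 3 lower in newborn than in adult rats and 3 higher and 2 lower than in old rats. Acvrl1, the kinase receptor that works with endoglin, had changes of 1.51 and 1.75 (adjusted p = 1.13e-09 and 1.35e-10; 19 of 19 pups above), Id3 had 1.33 against adult and Smad5 0.92 against old rats, while the target gene Id1 had −0.84 against adult rats (adjusted p = 8.74e-06; 18 of 19 below) and Bmpr2 −0.69 against old rats (adjusted p = 2.06e-06; 18 of 19 below). In adult against old rats 1 was higher, Smad5 (0.43), and 1 lower, Id3 (−0.88).

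Most tested markers of endothelial cells were called higher in newborn than in adult rats, and 4 of 7 were called higher than in old rats. Of 10 such genes 7 were tested, and 6 were higher and 0 lower by limma in newborn than in adult rats, 4 higher and 1 lower than in old rats, and 0 higher and 3 lower in adult than in old rats. Egfl7 (2.22 and 2.23), Clec14a (2.09 and 2.46) and Esam (2.07 and 2.15) were higher against both adult and old rats in 19 of 19 pups. Emcn, a surface sialomucin, was lower than in old rats (−0.42; adjusted p = 0.00108; 13 of 19 pups below every old rat) and not called against adult rats (0.03). It was the only marker called lower in newborn rats. It belonged to the list of 10 genes, but was picked to be named here after its value was seen. The tight junction gene Cldn5, the brightest of the list, was 1.22 above adult rats, not called against old rats (−0.46) and lower in adult than in old rats (−1.68), as were Icam2 (−0.63) and Emcn (−0.44). The Icam2 call was lost in 9 of 13 other settings. Of the 3 markers outside the test, the junction cadherin Cdh5 was above background on 19 of 19 newborn, 0 of 8 adult and 7 of 8 old arrays, Plvap on 19, 8 and 3, and Robo4 on 11, 2 and 5. The summed level of the 10 markers, as multiples of the array median, ran from 95.1 to 200 in newborn (median 138), 41.1 to 51.8 in adult (median 48.0) and 86.6 to 112 in old rats (median 93.5), and each of the 10 was above background on at least 1 array. This sum is weighted to Cldn5 and does not follow Egfl7, Clec14a or Esam in old rats. The part of endothelial cell number in the changes of the vascular genes was not tested.

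Most tested regulators of endothelial growth were called higher in newborn rats. Of 13 genes 7 were tested, and newborn rats had 5 higher than adult rats, 6 higher than old rats and 0 lower in either by limma, with 1 lower in adult than in old rats (Sox18, −0.85). Apln, a peptide made by sprouting endothelial cells, had changes of 3.27 and 3.51, and its receptor Aplnr had 1.76 against old rats. Sox18 had 2.46 against adult rats, and Nos3 had 2.38 and 2.16, with 19 of 19 pups above every older rat for each of these values. S1pr1 and Sox7 were above background on no array. The summed level was 60.2 to 96.3 in newborn (median 69.4), 17.9 to 24.3 in adult (median 20.9) and 21.1 to 27.8 in old rats (median 22.7), with Apln the brightest in newborn rats and Notch4 in adult and old rats.

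**Figure D3:**
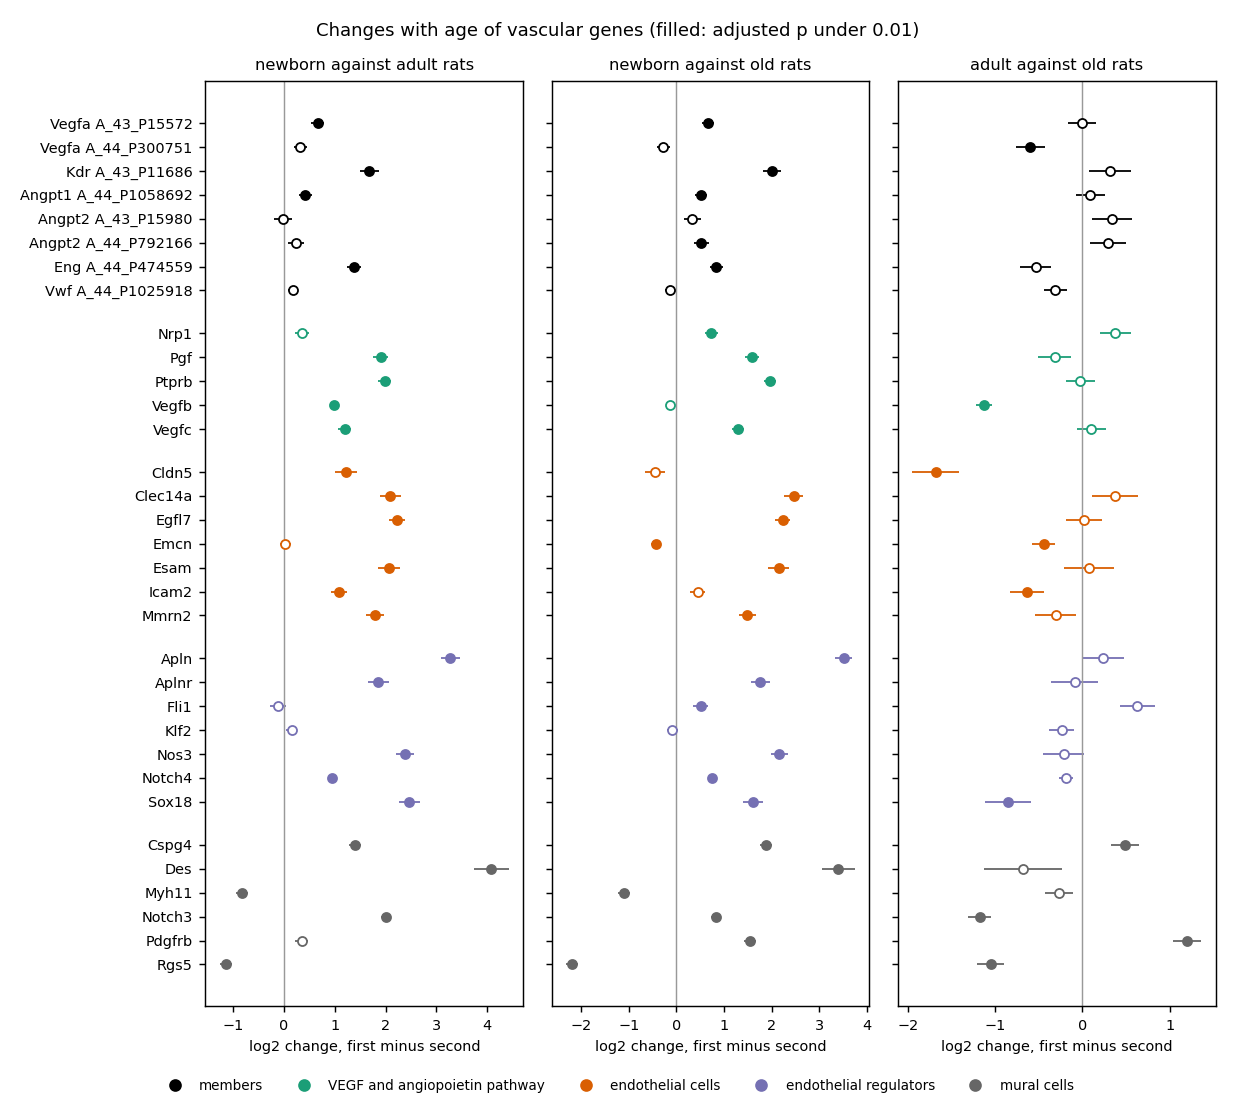
Log2 change (x axis) of the 8 tested probes and of the genes of 4 lists in the 3 comparisons of newborn, adult and old rats, with the SE as a bar and filled points at an adjusted p under 0.01. Kdr lies at 1.68 and 2.0 in newborn against adult and against old rats, and at 0.32 between the older groups.

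The list of mural cells, which lie around vessels, held calls in both directions, whereas the lymphatic list held only calls higher in newborn rats. Of 6 tested mural cell genes, 3 were higher and 2 lower in newborn than in adult rats, 4 higher and 2 lower than in old rats, and 2 higher and 2 lower in adult than in old rats. The muscle filament gene Des (4.08 and 3.40) and Cspg4 (1.39 and 1.88) were higher in newborn rats, as was Notch3 against adult rats (2.01), whereas the pericyte gene Rgs5 was lower against old rats (−2.19). Between the older groups, Pdgfrb was higher (1.20) and Notch3 lower (−1.18) in adult rats. Their summed level was 127 to 203 in newborn (median 154), 67.8 to 91.0 in adult (median 76.9) and 90.3 to 103 in old rats (median 95), with Cspg4 the brightest in newborn and adult and Rgs5 in old rats. Of lymphatic genes 2 of 4 were tested, both higher against adult rats (Lyve1 2.73, Pdpn 0.56) and 1 against old rats (Lyve1 2.98), with 0 called by limma between adult and old rats, and Prox1 was above background on no array. Their sum was 6.31 to 13.9 in newborn (median 9.90), 3.75 to 5.55 in adult (median 4.47) and 4.38 to 5.67 in old rats (median 4.87), with Pdpn the brightest.

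Red cell genes were higher in 4 of 4 tested against adult and 3 of 4 against old rats (Ahsp 5.11 and 4.09, Slc4a1 4.21 and 3.27, Alas2 3.43 and 1.38) and lower in 2 of 4 in adult than in old rats (Alas2 −2.05, Hbb −1.35), with a sum 323 to 1340 in newborn (median 684), 57.2 to 113 in adult (median 76.1) and 176 to 396 in old rats (median 223), the brightest being Alas2 in newborn and old and Hbb in adult rats. Platelet genes were higher in 2 of 2 against adult (Pf4 2.06, Gp1bb 1.28) and 1 of 2 against old rats (Gp1bb 1.37) and lower in 1 of 2 in adult than in old rats (Pf4, −2.19), with a sum 88.0 to 155 in newborn (median 125), 43.4 to 53.2 in adult (median 47.6) and 52.6 to 77.1 in old rats (median 59.8), Gp1bb being the brightest. Of 6 macrophage genes, 2 were higher against adult rats (Cd68 1.36, Mrc1 0.84) and 2 higher (Cd68 1.75, Mrc1 2.44) and 2 lower (Adgre1 −1.46 the largest) against old rats, and 1 was higher (Mrc1 1.60) and 2 lower (Adgre1 −1.54) in adult than in old rats, with a sum 125 to 372 in newborn (median 162), 73.9 to 136 in adult (median 113) and 157 to 189 in old rats (median 168), Cd14 being the brightest.

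Genes of mature sensory neurons were lower in 6 of 6 in newborn rats against both older groups (Omp −2.40 and −3.11, Adcy3 −2.66 and −2.94, Cngb1 −3.24 against adult and Stoml3 −3.40 against old rats) and in 2 of 6 in adult against old rats (Stoml3 −1.16, Omp −0.71), with a sum 203 to 452 in newborn (median 364), 1220 to 1640 in adult (median 1430) and 1860 to 2560 in old rats (median 2180), the brightest being Gnal in newborn and adult and Stoml3 in old rats. Dividing cell genes were higher in 5 of 5 in newborn rats against both groups (Cdk1 2.97 and 3.68, Mki67 2.50 and 3.54, Ccnb1 2.63 against adult and Top2a 3.31 against old rats) and in 4 of 5 in adult against old rats (Mki67 1.04, Top2a 1.04), with a sum 288 to 511 in newborn (median 392), 54.2 to 64.5 in adult (median 58.6) and 31.3 to 39.9 in old rats (median 35.5), Cdk1 being the brightest. Of 5 tested cartilage and bone genes 2 were higher (Col2a1 4.74, Col10a1 1.5) and 1 lower (Alpl −1.29) against adult rats, and 5 higher against old rats (Col2a1 5.09, Ibsp 3.84, Alpl 2.50) and 2 higher in adult than in old rats (Ibsp 4.06, Alpl 3.79), with a sum 771 to 2430 in newborn (median 1160), 747 to 1360 in adult (median 976) and 279 to 496 in old rats (median 441), Bglap being the brightest. Among the list genes, the calls of Pdpn and Mrc1 against adult rats, and between the older groups those of Icam2, Sox18, Smad5, Id3, Omp, Stoml3, Mki67, Car9, Hbb and Pf4, were lost in at least 1 other setting, as was that of Alpl against adult rats. Of 13 other settings, the call was lost in 9 for Icam2, 8 for Pdpn, 7 for Sox18, 6 for Omp and 4 for Smad5. With normexp background correction, changes of several list genes shrank, among them Nos3 (0.998), Lyve1 (1.24) and Pgf (1.01) against adult rats, Mrc1 against old rats (1.20), and Stoml3 (−0.35) and Omp (−0.19) between the older groups. The part of these cells in the changes of the vascular genes was not tested.

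Genes of the response to low oxygen, which raises Vegfa in many tissues, moved in both directions. Of 10 tested, newborn rats had 4 higher and 3 lower than adult rats, 3 higher and 4 lower than in old rats, and 1 higher and 6 lower in adult than in old rats. Ldha, an enzyme of glycolysis, had changes of 1.68 and 1.04 against adult and old rats (19 of 19 pups above), whereas Egln3, an oxygen sensor that the response itself induces, had −1.42 and −2.23 and Epas1, its transcription factor in endothelial cells, had −1.82 and −1.60 (19 of 19 pups below). Car9 (−1.20) and Egln3 (−0.81) were lower in adult than in old rats. The summed level was 464 to 751 in newborn (median 533), 434 to 470 in adult (median 448) and 572 to 663 in old rats (median 615), with Pgk1 the brightest in newborn rats and Slc2a1 in adult and old rats.

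Promoters were read from a file made from RefSeq (build GRCr8), in which 5 of the 10 genes had an entry under their symbol (Vegfa with 2 entries, Kdr, Flt1, Tie1 and Eng), as the 250 bases before the start. Because Kdr, Flt1, Tie1 and Eng were higher in newborn rats, their promoters are shown. A longer form of the core motif of ETS factors, a family that acts in endothelial genes, was searched. This form was AGGAAG on both strands (CTTCCT on the other). It occurred 2 times in Flt1, 1 time in Tie1 and 2 times in Eng, without overlaps, 0 times in Kdr and 0 times in both Vegfa entries, and in 29.5% of 33469 rat promoters of this length. The letters ACGTG, a form of the core of the hypoxia response element, occurred on neither strand of the 6 entries and in 16.6% of all promoters. Other forms of that core, such as GCGTG, and shorter forms of the ETS motif were not searched. A count of 0 therefore does not mean that a promoter lacks either core. A match is a description of the letters and no more. Capitals mark AGGAAG or CTTCCT.
Kdr promoter, chr14:32571813-32572062, plus strand: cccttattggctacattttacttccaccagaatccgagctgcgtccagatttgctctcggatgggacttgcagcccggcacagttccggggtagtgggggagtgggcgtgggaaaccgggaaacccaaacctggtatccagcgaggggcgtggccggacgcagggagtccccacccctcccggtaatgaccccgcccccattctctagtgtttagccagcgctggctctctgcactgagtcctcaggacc
Flt1 promoter, chr12:12333180-12333429, plus strand: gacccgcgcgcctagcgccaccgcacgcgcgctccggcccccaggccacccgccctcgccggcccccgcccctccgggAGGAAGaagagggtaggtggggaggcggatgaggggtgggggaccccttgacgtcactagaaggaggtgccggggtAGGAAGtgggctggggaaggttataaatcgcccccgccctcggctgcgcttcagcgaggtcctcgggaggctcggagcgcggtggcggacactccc
Tie1 promoter, chr5:137304982-137305231, minus strand: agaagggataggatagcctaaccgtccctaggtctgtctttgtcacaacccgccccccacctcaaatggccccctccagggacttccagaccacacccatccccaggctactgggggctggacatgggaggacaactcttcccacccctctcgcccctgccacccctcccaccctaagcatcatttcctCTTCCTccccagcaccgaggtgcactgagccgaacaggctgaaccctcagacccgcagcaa
Eng promoter, chr3:36332029-36332278, plus strand: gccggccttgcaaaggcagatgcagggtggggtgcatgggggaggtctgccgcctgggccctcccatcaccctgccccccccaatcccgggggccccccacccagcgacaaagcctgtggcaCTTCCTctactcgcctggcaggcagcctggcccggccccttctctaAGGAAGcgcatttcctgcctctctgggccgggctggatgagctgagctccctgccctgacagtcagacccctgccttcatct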

How the data were processed

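RNA of 27 rats was measured on 35 arrays. The authors extracted each scan with Feature Extraction (9.5.1.1 for adult arrays, 9.5.3.1 for the others) and deposited, per spot, an intensity from which a fitted spatial surface was subtracted and which is not normalized between arrays, with the spot's mean and local background intensity and quality flags (other). A matrix of each array's ratio to its median, also from the authors, served as an alternative only. The members and lists were chosen with earlier results of these data known.

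A level is log2 of the intensity over the median of the array, with 0.01 as the lowest quotient allowed. Transcripts expressed in common were above background on at least 3 arrays of each litter and on at least 6 of 8 adult and 8 old arrays. limma 3.58.1 (R 4.3.3) fitted 6 groups with a rat as the replicate, newborn being the mean of the 4 litters, and p values were adjusted by Benjamini-Hochberg over 23668 transcripts. The fit was tested on simulated data. The genes named are all members with every probe, and from each of 13 lists the 3 called genes with the largest changes in each newborn comparison and 2 in adult against old rats, a gene being represented by its brightest probe; the lists cover the VEGF and angiopoietin pathway, the endoglin and BMP pathway, endothelial cells, endothelial regulators, mural cells, lymphatic endothelium, hypoxia response, red cells, platelets, macrophages, mature olfactory sensory neurons, cartilage and bone, and dividing cells. Cdh5, Plvap, Robo4 and Emcn, which belong to the list of endothelial cells, were added to the genes named after their values were seen. A correlation is taken after centring each group. Where a group had no array with the probe above background, the fold is an approximate bound, set against the lowest level of any probe well above background on each array of that group. Alternatives were 4 other scalings, other filters, arrays or litter means as samples, the methods' t-test, random blocks for rat, slide and scan day, and leaving out each rat. The normexp scaling used an offset of 50, which by itself makes log2 changes of dim probes smaller.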

Additional observations from a re-analysis of the deposited data

Results flagged for a closer look

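In 1 of 55 groups of 4 or 5 rats looked at for the members, 1 rat stood apart: Kdr in old rat 18 was at 3.26, while the other 3 old rats were between 3.57 and 3.62. Its gap to the nearest rat was 0.869 of the group's range, above Dixon's critical value of 0.829 for 4 rats. Chance flags about 1 in 20 groups.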

How the results depend on the processing

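The comparisons of newborn, adult and old rats were run with 13 other settings, and L1 against old rats and the litters with only some of these. Of 408 values of the tested probes, 380 kept their call and direction, 21 became weaker, 5 stronger and 2 reversed. With 1 of 27 rats left out, 1050 of 1080 kept both, 12 became weaker, 4 stronger and 14 reversed. Of the list genes' values, 1149 of 1193 and 2461 of 2484 kept call and direction, though many were smaller with normexp, whose offset by itself makes changes smaller. Kdr and Eng kept their newborn calls throughout. The number of genes called in newborn against adult rats was 7 with no filter on dim probes (4 in the chosen fit). Against old rats it was 8 with no filter and 3 with scan day as a random block (5). In L1 against old rats it was 7 with no filter (4). The added genes in all 3 no-filter counts are Flt1, Tie1 and Pecam1, the last on intensities mostly below background. In adult against old rats (1) it was 0 with the 75th percentile, newborn litter means, the methods' t-test at p under 0.01 adjusted and unadjusted, slide block and scan day block, 2 with quantile normalization, 3 with every array as a sample, and 0 to 2 with a rat left out. Among the litters (1) it was 2 with the 75th percentile, 0 with slide block and 0 to 2 with a rat left out, and slide block called 4620 transcripts instead of 8933. Directions reversed for the middle Angpt2 probe in newborn against adult rats (0.0337 with normexp; −0.16 to 0.12 with a rat left out) and in L1 against old rats (−0.0206 without rat 9 of L1, to 0.23), for Vwf in newborn against old rats (−0.20 to 0.004), for the downstream Vegfa probe in adult against old rats (0.0759 with the 75th percentile; −0.12 to 0.14 with a rat left out), and for Pecam1, fitted without the filter, in the latter comparison (0.29 with the array median, −0.39 with the 75th percentile and −0.0651 with normexp). The cause was not tested.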
